A study of Homo sapiens with 6 samples.

Results

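The thyroid lineage factors PAX8, NKX2-1, FOXE1 and HHEX and the thyroid differentiation genes TG, TSHR, SLC5A5, DIO2 and DUOX1 were examined in a thyroid cancer cell line. These 9 genes were chosen by name, and 8 of them were found among the 17687 genes of the deposited table. TSHR was not analysed here. Of the 8 genes, 6 passed the filter on low counts and were among the 14005 genes tested. NKX2-1 and DUOX1 did not pass it, so their values are described without a test.

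RNA of KHM-5M cells, a line from an anaplastic thyroid cancer, was sequenced in 6 libraries. The 2 control libraries came from cells labelled as the control group, and the 2 SS libraries from cells given sodium selenite (SS). The 2 SS+NAC libraries came from cells given sodium selenite with N-acetylcysteine (NAC), a thiol antioxidant. The study names PBS as the control of other assays, while the labels name no vehicle for the sequenced controls. The titles of the SS libraries hold the number 5 without a unit, which was not used as a dose, and the exposure time of the sequenced cells was not given in the sources used here. The study's methods name 2 biological replicates, while the labels do not say whether these were separate cultures, so the p-values measure only the spread between these libraries. KHM-5M is 1 line, and all groups share it and its culture medium.

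The expected counts summed to 17645545 and 22016655 in control, 23493415 and 23810056 in SS, and 23682740 and 22617180 in SS+NAC. At these depths the floor, set at 3 counts, corresponded to between 0.124 and 0.167 CPM (counts scaled to the TMM-adjusted library total). Replicates differed by more than sampling noise, with a chi-square per degree of freedom of 3.05 in control, 7.12 in SS and 11.7 in SS+NAC.

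Thyroid follicular cells are specified in the embryo by the joint action of PAX8, NKX2-1, FOXE1 and HHEX, and the first 3 of these transcription factors later drive the genes of hormone synthesis. Iodide enters the cell through SLC5A5, thyroglobulin (TG) is the protein scaffold on which the hormone is made, and DUOX1 and its close paralog DUOX2 supply hydrogen peroxide for the step. DIO2 is a selenoprotein that turns the prohormone thyroxine into its active form, and anaplastic carcinomas are known for losing much of this program.

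The question of the comparisons was whether selenite, alone or with the antioxidant, went with other levels of these genes. PAX8 was the dominant member, HHEX was moderately abundant, and the other 6 genes lay near or below 1 TPM, a scale that RSEM corrects for gene length. HHEX was higher and DIO2 lower in SS than in control, and no member passed the test between SS+NAC and control. Both SS differences lost their calls when the fit included a correction for gene length.

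The windows around the start sites of the 2 most abundant members and of DIO2 are shown first, because the results turn on these 3 genes. RefSeq windows from 250 bases before to 50 bases after the start (GRCh38.p14) were found for 7 of the 8 genes, with none for TG. NKX2-1 and DIO2 had 2 starts each, which gave 9 windows. The printed stretches lie before the start, outside any exon of GENCODE 29 and, for HHEX, before the start that the deposited table gives. They were read 5′ to 3′ on the gene's strand, and capitals mark the CCAAT box, the TATA box (TATAAA) and the cAMP response element (TGACGTCA), each searched on both strands.
PAX8, minus strand, chr2:113278951-113279171: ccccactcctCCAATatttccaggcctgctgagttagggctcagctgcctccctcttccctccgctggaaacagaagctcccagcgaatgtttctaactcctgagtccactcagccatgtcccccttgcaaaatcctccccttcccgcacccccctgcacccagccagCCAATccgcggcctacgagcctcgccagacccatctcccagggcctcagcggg
HHEX, plus strand, chr10:92689705-92689865: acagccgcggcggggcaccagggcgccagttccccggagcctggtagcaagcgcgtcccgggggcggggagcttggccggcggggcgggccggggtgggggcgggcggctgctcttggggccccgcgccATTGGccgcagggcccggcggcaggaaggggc
DIO2, minus strand, chr14:80212179-80212428: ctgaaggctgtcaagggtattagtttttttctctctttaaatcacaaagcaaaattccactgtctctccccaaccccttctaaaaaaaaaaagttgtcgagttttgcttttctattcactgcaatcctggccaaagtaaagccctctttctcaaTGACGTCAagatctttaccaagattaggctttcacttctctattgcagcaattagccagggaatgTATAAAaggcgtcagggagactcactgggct

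In PAX8 the CCAAT box began 240 and 82 bases before the start, and in HHEX it began 121 bases before it, on the other strand. The DIO2 window held the cAMP response element from 96 bases and the TATA box from 31 bases before the start. The other DIO2 window, which starts upstream of a different transcript, held none of the 3 motifs. Among 35116 windows of all genes, 34.6% held the CCAAT box, 11.5% the TATA box and 1.85% the cAMP response element. GC content was 62.0% in the whole PAX8 window, 80.3% in HHEX and 42.3% in DIO2, beside a median of 58.7% over all windows. A match is a description of letters, and the binding of a factor was not measured.

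The lineage factors are described first. PAX8 is a paired-domain transcription factor that is also used as a marker of thyroid origin. It had 4942 and 5825 expected counts in control, 6379 and 5990 in SS, and 6318 and 6079 in SS+NAC. Per length, this was 134 and 126 TPM in control, 116 and 104 TPM in SS, and 127 and 131 TPM in SS+NAC. Its control mean of 129.7 ± 5.72 TPM (SD, n = 2) was above that of 93.0% of the genes in the table. PAX8 alone made up between 78.5% and 81.3% of the summed TPM of the 8 genes in each library.

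On the TPM scale both SS libraries were below the other 4 libraries for PAX8. On the CPM scale, which uses the TMM-adjusted library totals, the values were 275 and 264 in control, 278 and 274 in SS, and 262 and 252.5 in SS+NAC. There SS overlapped control and lay above SS+NAC. The direction of the PAX8 difference between SS and control therefore depended on the scale. TPM divides by the gene's own length in every library, so between libraries the 2 scales differ mainly in how the library total is set. The fit with an offset for length, given below, had PAX8 at 0.22 in SS against control (95% interval 0.08 to 0.36), opposite in direction to TPM. The offset follows a trend with length across genes in each library, which TPM does not do. The 2 values are therefore not 2 forms of the same correction, and the cause of the PAX8 values was not tested.

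The deposited table places PAX8 (GRCh38) on the plus strand of chromosome 2 from 113055680 to 113374994, with 22 transcripts. GENCODE 29 has the gene on the minus strand from 113215997 to 113278950, a span of 62954 bases beside 319315 bases in the table. On the plus strand, PAX8-AS1 lies across it from 113211522 to 113276581, and it was not analysed here as a gene of its own. No source used here says that the counting took strand into account, so reads from PAX8 and PAX8-AS1 cannot be told apart, and the PAX8 level is uncertain to that extent. The table's wide span also covers PSD4, which lies outside the GENCODE gene and had 893 and 1081 counts in control. All 6 PAX8 counts were whole numbers.

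HHEX, a homeobox factor needed for the growth of the thyroid bud, had 445 and 543 counts in control, 706 and 644 in SS, and 572 and 583 in SS+NAC. After scaling, this was 24.7 and 24.6 CPM in control, 30.8 and 29.4 CPM in SS, and 23.7 and 24.2 CPM in SS+NAC. Both SS libraries were above all 4 others, and control and SS+NAC were close to each other. On the TPM scale the groups overlapped, with 28.0 and 27.3 in control, 29.8 and 25.9 in SS, and 26.7 and 29.2 in SS+NAC. The table places HHEX on the plus strand of chromosome 10 from 92689866 to 92695651, and no other GENCODE gene overlaps it.

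FOXE1, a forkhead factor that acts in the migration of the thyroid bud, had 36 and 31 counts in control, 29 and 27 in SS, and 42 and 63 in SS+NAC. Its TPM were 1.14 and 0.78 in control, 0.62 and 0.55 in SS, and 0.99 and 1.59 in SS+NAC. SS was the lowest group in both measures and did not overlap the others, while control and SS+NAC overlapped in TPM. FOXE1 lies on chromosome 9 from 97853255 to 97856715.

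NKX2-1, a homeobox factor of thyroid, lung and forebrain, had 3 and 5 counts in control, 2 and 5 in SS, and 2 and 3 in SS+NAC. These counts lay on both sides of the floor of 3. On the TPM scale, with 0.15 and 0.20 in control, 0.07 and 0.16 in SS, and 0.07 and 0.12 in SS+NAC, SS overlapped both other groups and SS+NAC lay below control. At so few counts such a gap cannot be told from counting error, and no test was made. In GENCODE 29 the antisense gene NKX2-1-AS1 and 2 further non-coding genes overlap it on chromosome 14 (36516397 to 36520225), so even these few reads are not certain to come from NKX2-1. Its neighbour NKX2-8 had between 1 and 5 counts in a library.

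**Figure D1:**
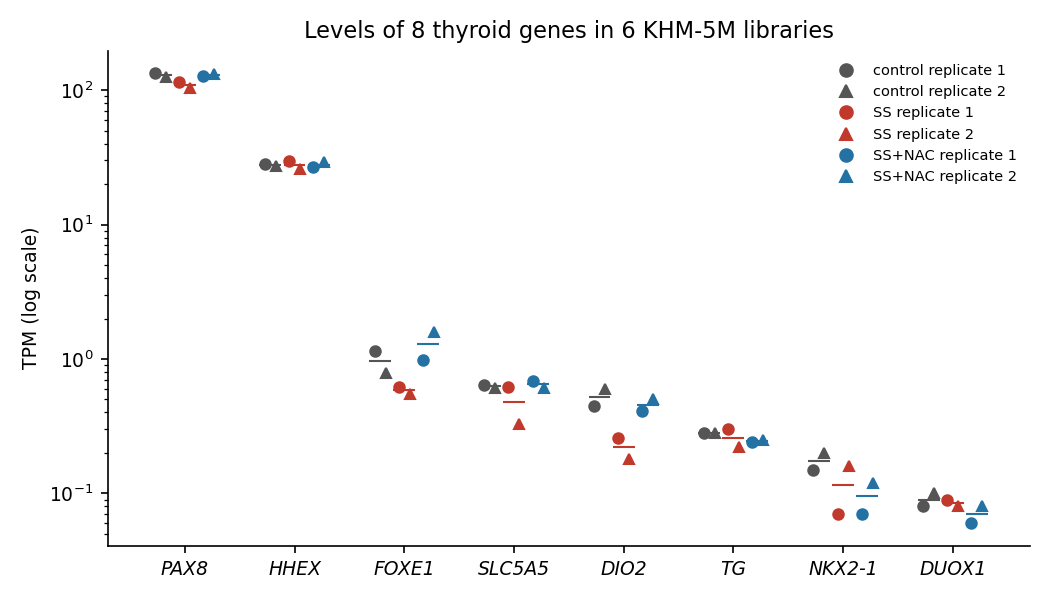
Levels of the 8 thyroid genes in each library, in TPM on a log scale, with a circle for replicate 1, a triangle for replicate 2 and a short line for the mean of each group. PAX8 lies between 104 and 134 TPM and HHEX between 25.9 and 29.8 TPM in all 6 libraries, and the other 6 genes lie at or below 1.59 TPM.

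Among the genes of hormone production, TG had 20.1 and 25.2 expected counts in control, 32.0 and 24.2 in SS, and 22.9 and 22.6 in SS+NAC. That is 0.28 TPM in both control libraries, 0.30 and 0.22 in SS, and 0.24 and 0.25 in SS+NAC, with SS spanning the control value. All 6 TG counts had decimals, which arise where RSEM divides a read between genes, and SLA overlaps TG on the opposite strand with between 2 and 4 counts in a library.

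SLC5A5, the sodium iodide symporter that concentrates iodide in the follicular cell, had 23.4 and 24.1 counts in control, 29.1 and 16.7 in SS, and 26.3 and 25.5 in SS+NAC. The highest and the lowest count were both in SS, so the groups overlapped in counts, which are not scaled for depth. On the CPM scale the highest value was 1.30 in control replicate 1, beside 1.27 in SS replicate 1. Its counts had decimals in all 6 libraries. In TPM it had 0.64 and 0.61 in control, 0.62 and 0.33 in SS, and 0.69 and 0.61 in SS+NAC.

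DUOX1, the oxidase, had 4 and 5 counts in control, 5 and 5 in SS, and 3 and 4 in SS+NAC. Its TPM were 0.08 and 0.10 in control, 0.09 and 0.08 in SS, and 0.06 and 0.08 in SS+NAC. These counts are at or just above the floor of 3, and they were lower in both SS+NAC libraries than in both SS libraries by 1 or 2 counts, which is within counting error. All 6 DUOX1 counts were whole numbers, and DUOX2 was not analysed here. DUOXA1, the maturation factor that overlaps DUOX1 on the other strand, had no count in control and 1 count in each other library.

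DIO2 had 26 and 43.8 counts in control, 22 and 16 in SS, and 32 and 36.8 in SS+NAC. Its TPM were 0.45 and 0.60 in control, 0.26 and 0.18 in SS, and 0.41 and 0.50 in SS+NAC. Both SS libraries were the lowest on the count, CPM and TPM scales, and control and SS+NAC overlapped. The table places DIO2 on the minus strand of chromosome 14 from 80197525 to 80231164, while GENCODE 29 extends the gene to 80387757 and has DIO2-AS1 across it on the plus strand, so its few reads share the uncertainty named for PAX8.

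With more than 3 counts in each control library as the limit, 7 of the 8 genes were detected, all but NKX2-1. By this limit 81.0% of all genes in the table were detected. With at least 10 counts in each, 6 of the 8 passed, beside 74.5% of all genes. With at least 1 TPM in each, 2 of the 8 passed, PAX8 and HHEX, beside 67.8% of all genes.

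The order of control levels on the TPM scale was PAX8, HHEX, FOXE1, SLC5A5, DIO2, TG, NKX2-1 and DUOX1. PAX8 was 4.69 times HHEX and HHEX 28.8 times FOXE1, with no overlap over the 6 libraries. Further down, FOXE1 (0.960 ± 0.255 TPM, SD, n = 2), SLC5A5 (0.625 ± 0.0212) and DIO2 (0.525 ± 0.106) had exact 95% Poisson intervals of 0.744 to 1.22, 0.460 to 0.830 and 0.409 to 0.664 TPM. SLC5A5 could not be ordered against either of the others, as its interval overlapped both, while FOXE1 lay above DIO2 by its interval and in all 6 libraries. The interval of TG, 0.204 to 0.374 TPM, lay below that of DIO2 in control. This order did not hold in SS, where TG had 0.30 and 0.22 TPM and DIO2 0.26 and 0.18 TPM. NKX2-1, at 0.0756 to 0.345 TPM, overlapped both TG and DUOX1, which had 0.0412 to 0.171 TPM. Such intervals cover counting error only. FOXE1, SLC5A5 and DIO2 each lay above no more than 31.0% of the genes in the table.

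The tissue label was checked against the markers of the follicular cell. HHEX was clearly present, and PAX8 had high counts, which cannot be told apart from reads of PAX8-AS1. FOXE1, SLC5A5 and TG were at trace levels, NKX2-1 was at the floor, and TSHR was not analysed here. Of 10 epithelial markers, 9 were in the table and all 9 had over 3 counts in every library. Their summed level was between 1862 and 2610 TPM, led by KRT8. Most of this sum in control came from KRT8 (mean 1161 TPM) and KRT18 (930 TPM). The control means of KRT7, TJP1 and CLDN1 were 60.02, 29.41 and 27.05 TPM, and those of EPCAM, OCLN and KRT19 were 5.555, 4.73 and 1.85 TPM. Mesenchymal markers, 8 of 8 above 3 counts in every library, summed to between 7137 and 7698 TPM, led by VIM with 5880 and 6202 TPM in control. CDH1, the adhesion protein of epithelia, singled out after its values were seen, had only 0.29 and 0.16 TPM in control.

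Markers of other cells were mostly low. The 7 markers of C cells, the calcitonin cells of the thyroid, 6 of them in the table, summed to between 1.33 and 2.65 TPM, led by CHGB, and CALCA had 1 and 0 counts in control. Parathyroid markers, 2 of 3 in the table, were at 0 in control. Lung markers (4 of 5 in the table) summed to at most 0.95 TPM, with NAPSA at 0 in control, and endothelial markers (3 of 3) to at most 0.71 TPM, led by PECAM1. Colon markers (3 of 6) reached at most 0.11 TPM, with KRT20 and MUC2 at 0 in control.

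Some markers used for other tissues were not low. Kidney markers, 4 of 5 in the table, summed to between 14.8 and 27.7 TPM, with LHX1 at 10.9 and 9.77 TPM and WT1 at 10.2 and 10.4 TPM in control, while PAX2, the paralog of PAX8, was at 0 in control. Fibroblast markers (6 of 6 in the table) summed to between 175 and 284 TPM, nearly all from COL1A1, with COL3A1 at 0 in control. Leukocyte markers (6 of 6) summed to between 74.1 and 114 TPM, led by the lysosomal gene CD68, and PTPRC, the pan-leukocyte marker, had at most 0.77 TPM. Melanocyte markers (5 of 6) summed to at most 3.56 TPM, led by MITF, with SOX10 at 0 in control.

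**Figure D2:**
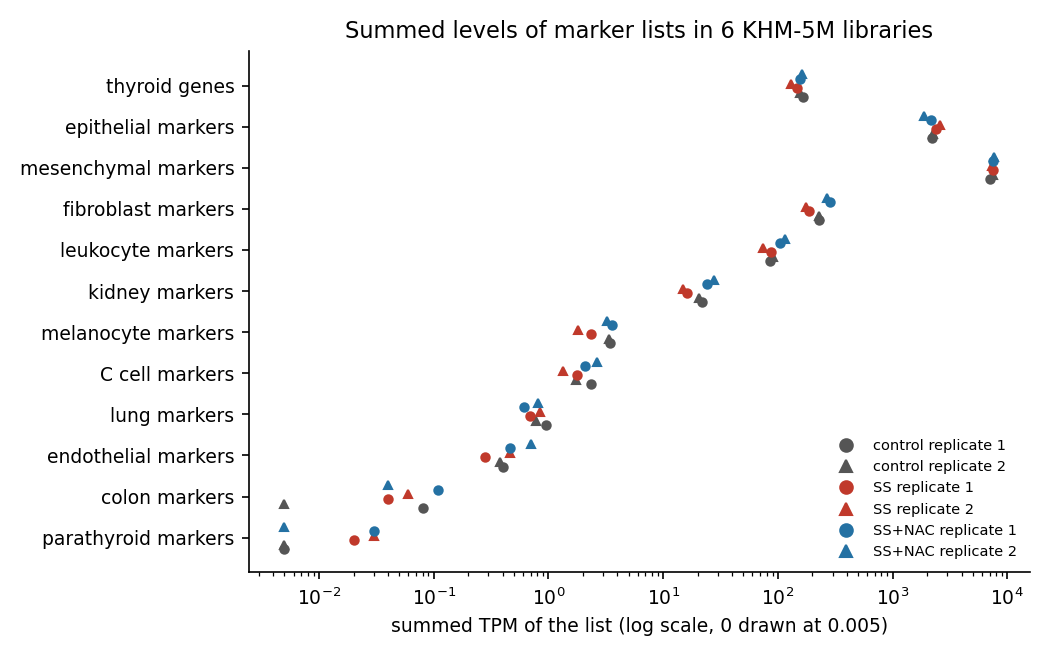
Summed TPM of each marker list in each library, on a log scale, with colours for groups and shapes for replicates. Mesenchymal and epithelial markers lie highest, the thyroid genes sum to between 131 and 165 TPM, and lung, endothelial, colon and parathyroid markers stay below 1 TPM.

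For SS against control, 2 of the 6 tested thyroid genes were called by edgeR's quasi-likelihood test at an adjusted p of at most 0.05, while 40.0% of all tested genes were called. HHEX was 1 gene called higher, where 18.6% of all genes were higher, and DIO2 was 1 gene called lower, where 21.4% were lower. A share of 2 in 6 is near that of all genes and says nothing particular about these members. In such bulk libraries, fewer cells that make an RNA and less RNA per cell cannot be told apart.

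HHEX rose by a log2 fold change of 0.29 (SE 0.08, 95% interval 0.11 to 0.47, adjusted p = 0.0165, edgeR), which is 1.22-fold, with both SS libraries above both controls. The call was lost without control replicate 1 (0.29, adjusted p = 0.0970), control replicate 2 (0.31, 0.0834), SS replicate 1 (0.26, 0.0911) and SS replicate 2 (0.32, 0.0536). DESeq2's Wald test gave 0.29 with an adjusted p of 0.0635. Over all 15 alternatives with an adjusted p, it lay between 0.00807 and 0.825.

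DIO2 fell by 1.03 on the log2 scale (SE 0.31, 95% interval -1.72 to -0.34, adjusted p = 0.0230, edgeR), to 0.490 of the control level, and both SS libraries were below both controls. Without control replicate 2 the log2 fold change was -0.74 (adjusted p = 0.211), and without SS replicate 2 it was -0.85 (adjusted p = 0.137), neither of which passed. DESeq2 gave a log2 fold change of -1.02 but no adjusted p for this low gene. Over the 14 alternatives with an adjusted p, it lay between 0.0155 and 0.323.

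The other tested thyroid genes did not pass in SS against control. PAX8 had a log2 fold change of 0.04 (95% interval -0.12 to 0.19) in the edgeR fit, which leaves room for only small changes on this scale. The intervals of the low genes were wide, with -1.13 to 0.27 for FOXE1, -0.94 to 0.54 for SLC5A5 and -0.50 to 0.81 for TG. For these a rise or fall of moderate size was not detectable at this depth.

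Between SS+NAC and control, 0 of the 6 tested thyroid genes were called by edgeR, where 2.01% of all genes were called. None of the 6 had an unadjusted p under 0.05, and DESeq2 also called 0. The log2 fold changes were -0.07 for PAX8 (95% interval -0.22 to 0.09), -0.04 for HHEX (-0.22 to 0.14) and 0.37 for FOXE1 (-0.27 to 1.01). SLC5A5 had -0.15 (-0.88 to 0.57), TG -0.23 (-0.91 to 0.44) and DIO2 -0.28 (-0.90 to 0.35). The intervals for PAX8 and HHEX were narrow, and those of the others do not show that the levels were alike.

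For SS against SS+NAC, 1 of the 6 tested thyroid genes was called, beside 42.7% of all tested genes. It was HHEX, which was higher in SS, as were 19.6% of all genes, while none of the 6 was called lower, beside 23.1% of all genes. The SS libraries enter this comparison and that with control, so the values are not independent of each other. HHEX had a log2 fold change of 0.33 (SE 0.08, 95% interval 0.15 to 0.51, adjusted p = 0.00762, edgeR) and DESeq2 also called it, with an adjusted p of 0.0195. Without SS replicate 1 the log2 fold change was 0.30, and its adjusted p of 0.0510 just missed. The adjusted p lay between 0.00511 and 0.498 over 15 alternatives.

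FOXE1 and DIO2 were lower in SS than in SS+NAC without passing. FOXE1 had a log2 fold change of -0.80 (95% interval -1.46 to -0.14) with an adjusted p of 0.0502 in edgeR, just over the limit. It passed without SS+NAC replicate 1 (-1.06, adjusted p = 0.0151) and with a filter of at least 10 counts in every library (-0.78, adjusted p = 0.0394), and ranged between 0.0151 and 0.332 over 15 alternatives. DIO2 had -0.75 (95% interval -1.44 to -0.06, adjusted p = 0.0751). PAX8 (0.10), TG (0.39) and SLC5A5 (-0.05) were well short of the threshold.

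**Figure D3:**
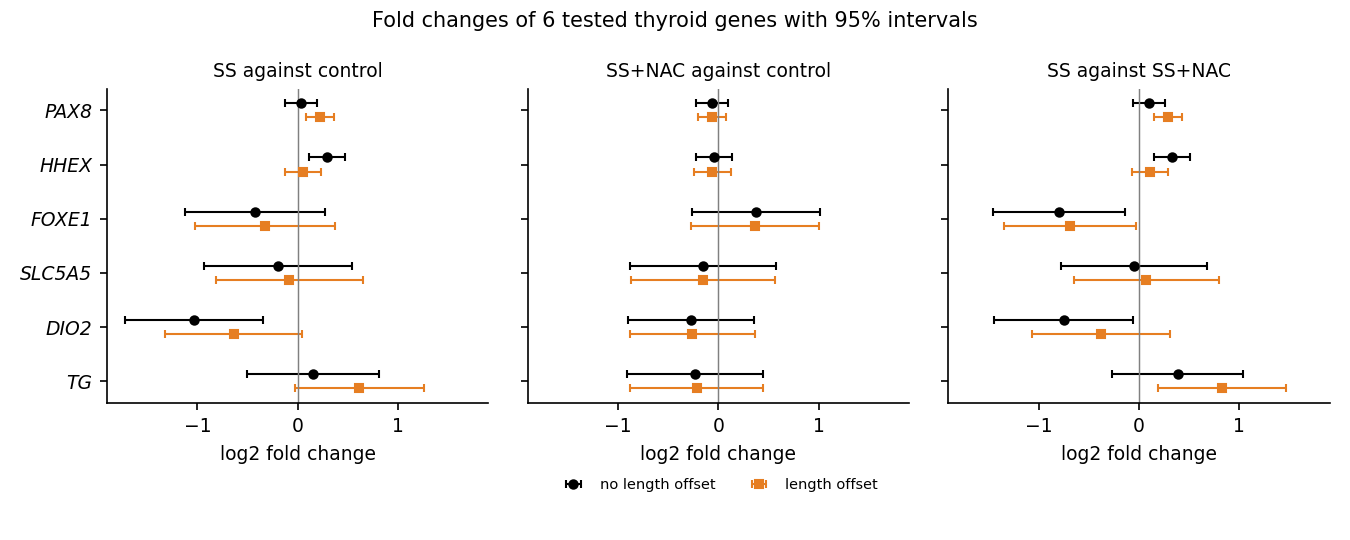
Log2 fold changes of the 6 tested thyroid genes in the 3 comparisons, with 95% intervals as bars, in the edgeR fit without (circles) and with (squares) the length offset. HHEX in SS against control moves from 0.29 to 0.05 and DIO2 from -1.03 to -0.64 with the offset, while PAX8 moves from 0.04 to 0.22.

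The fold changes were also described by gene length. Over the 14005 tested genes, Spearman's correlation between the log2 fold change of SS against control and the effective gene length was -0.68, and it was -0.0376 for SS+NAC against control and -0.637 for SS against SS+NAC. This is a description across genes, which are not independent. HHEX, with an effective length of 1757 bases, is longer than 20.3% of the tested genes, PAX8 (4086 bases) than 67.8%, DIO2 (6389 bases) than 89.1% and TG (7799 bases) than 94.3%. The short HHEX rose and the long DIO2 fell, while the still longer TG had a log2 fold change of 0.15 and PAX8 0.04, and whether length caused any of these values was not tested.

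With an offset for length in each library, 9.23% of all genes were called in SS against control and 0 of the 6 thyroid genes by edgeR. HHEX then had a log2 fold change of 0.05 (95% interval -0.13 to 0.23, adjusted p = 0.750) and DIO2 -0.64 (95% interval -1.32 to 0.05, adjusted p = 0.228). PAX8 had 0.22 (95% interval 0.08 to 0.36, adjusted p = 0.0584) and TG 0.61 (95% interval -0.03 to 1.26), and neither passed. In SS against SS+NAC, where 14.4% of all genes were called with the offset, 1 of the 6 was called, and it was PAX8 (0.29, 95% interval 0.14 to 0.43, adjusted p = 0.0170) in place of HHEX (0.11, adjusted p = 0.370). With the offset and the replicate block together, the adjusted p of PAX8 was 0.0511, and over all 15 alternatives it lay between 0.0170 and 0.542. In SS+NAC against control the offset left the share of all genes at 2.01% and the count at 0 of the 6.

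**Figure D4:**
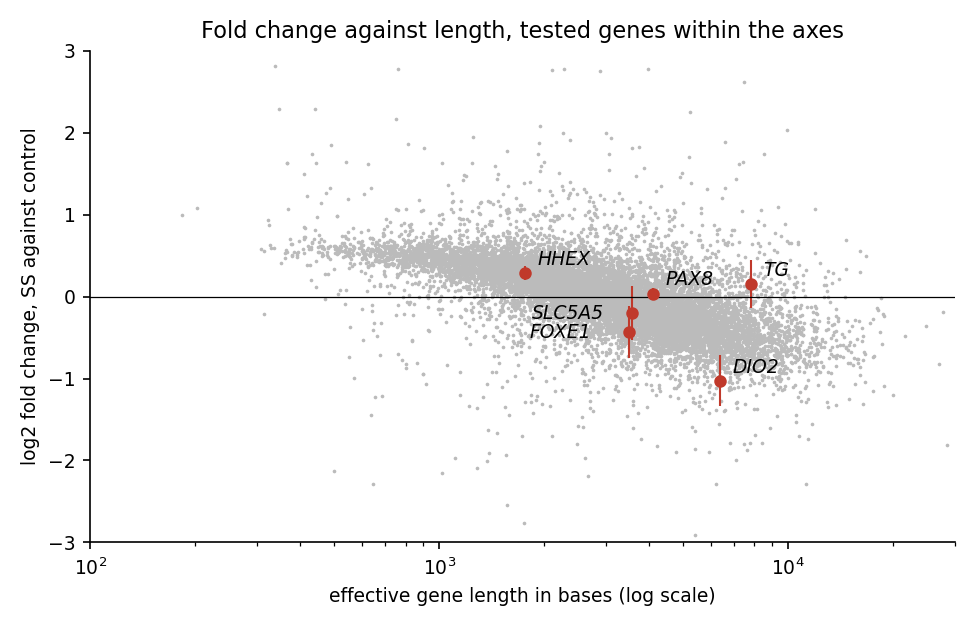
Log2 fold change of SS against control for the tested genes (grey points) against effective gene length in bases on a log scale, with the 6 tested thyroid genes in red and their standard errors as bars (29 genes lie outside the axes). Shorter genes lie mostly above 0 and longer genes mostly below it, with HHEX above, DIO2 below, and the long TG above 0.

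The genes whose log2 CPM over the 6 libraries was most like that of each thyroid gene were listed as a description, over 6 points that share their 3 treatments. For PAX8 they were DGKA (Pearson's r = 0.994), GID8 (0.982) and HES6 (0.982). For HHEX they were TMSB4X (0.998), GLUL (0.996) and GLRX2 (0.994), and for DIO2 they were STAT3 (0.995), ITGB5 (0.992) and ELFN2 (0.987). For FOXE1 they were KRBOX4 (0.998), TGFA (0.995) and ZNF558 (0.991). For the low genes SLC5A5 and TG they were CCIN (0.998), GPT (0.979) and ABCA6 (0.974), and LOC107986596 (0.973), LOC105376917 (0.970) and AP4S1 (0.968). With so few points and so many genes, high values of r arise for any pattern.

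Around these members, other genes of the thyroid lineage were measured. Of 7 lineage partners, 6 were tested, with a median log2 fold change of -0.03 in SS against control beside 0.00 over all tested genes. GLIS3, a zinc finger factor of thyroid development, fell by 0.44 on the log2 scale in SS against control (adjusted p = 0.0100, edgeR) and by 0.66 in SS against SS+NAC (adjusted p = 0.00112). Its values were 9.13 and 9.03 TPM in control, 6.19 and 5.21 in SS, and 9.10 and 12.6 in SS+NAC, with both SS libraries lowest. GLIS3 with the length offset had -0.02 and -0.26 and did not pass. WWTR1, a coactivator of PAX8 and NKX2-1 and the highest of the list, had 25.7 and 24.7 TPM in control and was not called. Between SS+NAC and control, edgeR called 0 of the 6, beside 2.01% of all genes (1 with an unadjusted p under 0.05, and 0 by DESeq2).

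Of 11 genes of iodide handling and hormone synthesis, 7 were in the table and 2 passed the filter. SLC26A4, the anion exchanger pendrin, was the highest at 0.63 and 0.55 TPM in control. In SS against control, SS+NAC against control and SS against SS+NAC edgeR called 0 of the 2, beside 40.0%, 2.01% and 42.7% of all tested genes, and none had an unadjusted p under 0.05. DESeq2 called 0, but it gave no adjusted p for either gene in the 2 comparisons with SS, nor for 1 of them between SS+NAC and control. DUOX2, DUOXA2 and SLC5A8 were not analysed here.

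Proteases that release hormone from thyroglobulin are lysosomal enzymes of most cells. Of the 6 genes listed for thyroglobulin breakdown, the 5 proteases were tested (CTSB, CTSD, CTSK, CTSL and CTSS). The other gene, LRP2, did not pass the filter. CTSD, the highest at 286 and 281 TPM in control, rose by a log2 fold change of 0.30 (adjusted p = 0.00749, edgeR) in SS against control. CTSL rose by 0.23 (adjusted p = 0.0425). Neither passed with the length offset, where CTSD had 0.15 and CTSL turned to -0.04. The median of the 5 was 0.23, beside 0.00 over all tested genes. In SS+NAC against control, edgeR and DESeq2 called 0 of the 5, beside 2.01% of all genes by edgeR, with 2 unadjusted p under 0.05. Both also called 0 in SS against SS+NAC, beside 42.7% of all genes by edgeR, with 0 unadjusted p under 0.05 and no adjusted p from DESeq2 for 1 of the 5.

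Genes of hormone activation, transport and response included partners of DIO2. Of 19 genes, 14 were tested, and in SS against control 8 fell and 0 rose, with a median log2 fold change of -0.28, where over all tested genes 21.4% were lower, 18.6% higher and the median was 0.00. THRA, a thyroid hormone receptor, fell by 0.59 (adjusted p = 0.00309, edgeR), from 14.6 and 17.5 CPM in control to 10.8 and 10.5 CPM in SS. USP33, which removes ubiquitin from DIO2, fell by 0.47 (adjusted p = 0.00167). Both passed with the length offset too, at -0.68 and -0.28. The ubiquitin ligase MARCHF6 fell by 0.21, SECISBP2, a protein for selenocysteine insertion, by 0.32, the coactivator NCOA1 by 0.54, and the corepressor NCOR1 by 0.34. THRB, outside the limit of 8 named genes and chosen after its values were seen, fell by 0.54. The fit with the length offset called 2 of the 14, beside 9.23% of all tested genes, and in it MARCHF6 (0.17) and NCOR1 (0.17) turned in sign.

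In SS against SS+NAC, 7 of these 14 fell and 1 rose, beside 23.1% lower and 19.6% higher over all tested genes, with a median log2 fold change of -0.29 beside -0.03. The one that rose was SLCO4A1, a carrier of thyroid hormone, at 0.30 (adjusted p = 0.0117, edgeR), and it also passed with the offset, at 0.39. Of SS+NAC against control, edgeR called 0 of the 14, beside 2.01% of all genes, with 4 unadjusted p under 0.05, and DESeq2 called 2. With the offset SLCO4A1 passed there, at -0.35 (adjusted p = 0.0485).

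The thyrotropin receptor acts through cAMP, and 15 of 15 genes listed for TSH and cAMP signalling were tested. The list also holds GNAQ and GNA11, which encode G proteins outside the cAMP chain. In SS against control 7 fell and 1 rose, with a median log2 fold change of -0.29, beside 21.4% lower, 18.6% higher and a median of 0.00 over all tested genes. GNAS, which encodes the stimulatory G protein, rose by 0.42 (adjusted p = 0.00242, edgeR) and was the highest of the list. It had 1564 and 1608 TPM in control, 1836 and 1758 TPM in SS, and 1708 and 1851 TPM in SS+NAC. With the offset GNAS had 0.15 in SS against control (adjusted p = 0.164, edgeR) and did not pass. GNAQ fell by 0.66, the adenylate cyclases ADCY3 and ADCY9 by 0.54 and 0.67, the kinase subunits PRKACB and PRKAR2A by 0.60 and 0.47, and CREB1 by 0.53. In the offset fit 2 passed, beside 9.23% of all tested genes, GNAQ at -0.28 and PRKACB at -0.38.

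The same list had 7 genes lower and 1 higher in SS against SS+NAC, beside 23.1% and 19.6% of all tested genes. The higher one was GNAS at 0.32, which had 0.07 with the offset and did not pass. PDE4D, a phosphodiesterase that breaks down cAMP, had 5.38 and 4.72 TPM in control, 3.84 and 2.96 in SS, and 7.83 and 9.52 in SS+NAC, with no overlap between groups. It was the 1 gene of the 15 called in SS+NAC against control, beside 2.01% of all tested genes, and it rose there by 0.72 (adjusted p = 0.00756, edgeR), and it had -1.01 in SS against SS+NAC. Both calls held with the offset, at 0.74 and -0.55. In SS against control PDE4D was not called, at -0.29 (adjusted p = 0.0633, edgeR), and its sign turned with the offset (0.18).

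**Figure D5:**
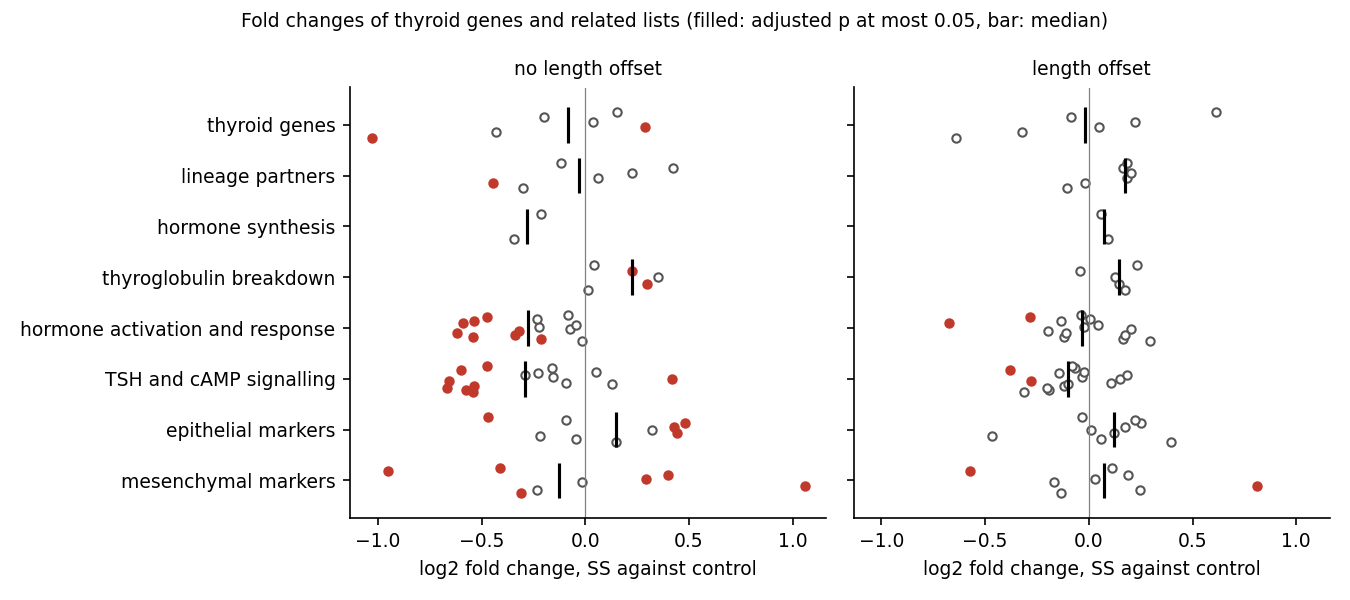
Log2 fold changes of SS against control for the tested genes of each list, without (left) and with (right) the length offset, with 1 point per gene, filled where the adjusted p was at most 0.05, and a bar for the median. The calls fall from 8 to 2 of 14 for hormone activation and response, from 8 to 2 of 15 for TSH and cAMP signalling, and from 2 to 0 of 6 for the thyroid genes, while over all tested genes they fall from 40.0% to 9.23%.

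Epithelial and mesenchymal markers both moved in each direction. Of 9 tested epithelial markers, 3 rose and 1 fell in SS against control, with a median log2 fold change of 0.15. Of all tested genes 18.6% were higher and 21.4% lower, with a median of 0.00. KRT7, KRT8 and KRT18, the keratins of simple epithelia, rose by 0.43, 0.48 and 0.44, and the junction protein TJP1 fell by 0.47. With the offset none of these 4 passed in that comparison, where 9.23% of all tested genes did. The keratins were higher in SS than in SS+NAC by 0.67, 0.65 and 0.71 and passed with the offset too, at 0.44, 0.44 and 0.41 (adjusted p = 0.0246, 0.0236 and 0.0246, edgeR). CLDN1, a tight junction protein, rose by 0.98 in SS+NAC against control (adjusted p = 0.00751, edgeR), from 29.4 and 24.7 TPM in control to 45.3 and 66.4 TPM, and also passed with the offset. It was lower in SS than in SS+NAC in both fits, at -1.03 and -0.92.

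Of 8 mesenchymal markers, 3 rose and 3 fell in SS against control, again beside 18.6% higher and 21.4% lower over all tested genes, with a median of -0.13 beside 0.00. SNAI1 rose by 1.06 (adjusted p = 0.000213, edgeR), VIM by 0.40 and TWIST1 by 0.29, and ZEB1 fell by 0.95 (adjusted p = 0.000245), ZEB2 by 0.41 and CDH2 by 0.31. With the offset, 2 of the 8 passed, beside 9.23% of all tested genes, SNAI1 at 0.81 and ZEB1 at -0.57. SNAI1 also rose in SS+NAC against control, by 0.62 (adjusted p = 0.0281). FN1 had -0.70 in SS against SS+NAC (adjusted p = 0.00126, edgeR) and -0.24 with the offset (adjusted p = 0.118), which did not pass. How these markers bear on the levels of HHEX and DIO2 was not tested.

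In the lists of other tissues, COL1A1 (-0.34), LHX1 (-0.50), WT1 (-0.39) and MITF (-0.58) were called in SS against SS+NAC, and MITF (-0.65) in SS against control, by edgeR. LHX1 and WT1 also passed with the length offset. Of the tested C cell, lung and endothelial markers (2, 1 and 2 genes), edgeR called 0 in SS against control, SS+NAC against control and SS against SS+NAC, beside 40.0%, 2.01% and 42.7% of all tested genes, and none had an unadjusted p under 0.05. DESeq2 called 0 between SS+NAC and control and gave none of them an adjusted p in the 2 comparisons with SS. Of 4 tested leukocyte markers both tools called 0, with no adjusted p from DESeq2 for 3, 1 and 3 of them and 1, 1 and 0 unadjusted p under 0.05 in SS against control, SS+NAC against control and SS against SS+NAC.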

How the data were processed

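RNA was captured with oligo(dT), copied from random primers and sequenced in single-end reads on a BGIseq500. Per the submitters' notes, reads were filtered with SOAPnuke and processed with HISAT2 2.0.4, Bowtie2 2.2.5 and RSEM 1.2.12. The deposited expected counts are RSEM output of the authors, and 44.8% of them were not whole numbers. The TPM values were made by the authors with RSEM, and so were the deposited FPKM values, from which effective lengths were derived here. The columns of the authors' own comparisons hold log2 fold changes, p-values and q-values and were not used.

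Counts were rounded, kept by filterByExpr (minimum count 10), scaled with TMM and fitted over all 6 libraries with edgeR 4.0.16 (R 4.3.3), with a biological coefficient of variation of 6.74%. Quasi-likelihood tests were adjusted by the Benjamini-Hochberg method over 14005 genes and a gene with an adjusted p up to 0.05 was called. The length offset was, for each library, a lowess fit (span 0.3) of log2 CPM (prior count 2) deviations on log length. The script was tested on simulated data. DESeq2 1.42.0 was an alternative, beside other filters, scalings and left-out libraries. Bonferroni adjustment was counted apart, and its values are not in the ranges of adjusted p given for single genes over the alternatives. CPM were computed from TMM-scaled totals. After ± stands the SD of the 2 libraries of a group. Python 3.11.15, pandas 2.3.3, numpy 2.4.6 and matplotlib 3.10.9 were used for tables and plots, and GENCODE 29 for overlaps. Table rows were matched by symbol or NCBI gene number.

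The members and lists were chosen with earlier results of these data known. Named were all members, of every other list the gene with the highest mean control TPM and up to 8 genes called in any comparison, by smallest adjusted p, the 3 genes most correlated with each member with a mean of at least 1 CPM, and overlapping, antisense or paralogous partners. Not every gene that met this rule is reported. TSHR, PAX8-AS1, NKX2-1-AS1 and DUOX2 were not analysed here. The length offset for the other lists was added after seeing the data.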

Additional observations from a re-analysis of the deposited data

How the results depend on the processing

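Of 270 values of the 18 member log2 fold changes under the alternatives, 247 kept their direction with no change of call seen, 14 lost a call, 3 gained one and 6 changed sign. Of the 247, 7 came from the DESeq2 Wald test without an adjusted p, among them DIO2 in SS against control (-1.02), so whether they kept their call is unknown. For genes called in SS against control (5609), SS+NAC against control (282) and SS against SS+NAC (5985), Bonferroni adjustment gave 220, 40 and 191, and leaving out 1 library 3143 to 6586, 96 to 1067 and 3268 to 6332. With the length offset the counts were 1292 for SS against control and 2019 for SS against SS+NAC. Where a group was left with a lone library, it was assumed to vary like the libraries of the other groups. In SS+NAC against control, 1067 genes were called without SS+NAC replicate 1, 103 without control replicate 1 and 96 without control replicate 2. For SS against control the low counts were 3143 without control replicate 1, 3690 without control replicate 2 and 3168 without SS replicate 2, and for SS against SS+NAC 3268 without SS replicate 2.

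Members called in SS against control (2) numbered 0 with the DESeq2 Wald test, which gave no adjusted p for 4 of the 6, 0 with the length offset, 0 with Bonferroni adjustment, and 0 to 2 when 1 library was left out. In SS against SS+NAC (1), there were 2 with at least 10 counts in every library, 0 with Bonferroni adjustment and 0 to 2 when 1 library was left out. With the length offset the 1 was PAX8 instead of HHEX. The share over all genes was not given for DESeq2 or for the filter of at least 10 counts. These counts of members therefore describe only how the calls depend on the settings and say nothing particular about the members. In SS+NAC against control all these alternatives gave 0. Members detected in control (7) were 2 at 1 TPM in each library, and 7 to 8 when a control library was left out.

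Replicates share only a number across groups, and their deviations correlated at 0.113 (control and SS), -0.105 (control and SS+NAC) and -0.175 (SS and SS+NAC), so the numbers were not taken as a pairing. With the replicate block, 4857, 211 and 5136 genes were called in SS against control, SS+NAC against control and SS against SS+NAC, and 2, 0 and 1 members. With the length offset and the replicate block, 850 genes and 0 members were called in SS against control, and 1350 genes and 0 members in SS against SS+NAC.

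Signs changed for TG in SS against control without SS replicate 1 (-0.0333, range -0.0333 to 0.31 over the left-out libraries), and for SLC5A5 in SS against control without SS replicate 2 (0.10, range -0.59 to 0.10). In SS against SS+NAC, SLC5A5 had 0.0704 with the length offset, 0.0543 with the length offset and replicate block, 0.0576 after thinning to the smallest total and 0.26 without SS replicate 2 (range -0.44 to 0.26 over the left-out libraries). Among the named list genes called without it, the length offset also changed the sign in SS against control of CTSL (-0.0435), MARCHF6 (0.17), NCOR1 (0.17) and ZEB2 (0.11), and in SS against SS+NAC of THRB (0.00381), NCOR1 (0.25, adjusted p = 0.0393), TJP1 (0.10) and ZEB2 (0.10). The cause was not tested.

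With the length offset, added after seeing the data, called list genes went in SS against control from 1 to 0 for lineage partners, 2 to 0 for thyroglobulin breakdown, 8 to 2 for hormone activation and response, 8 to 2 for TSH and cAMP signalling, 4 to 0 for epithelial, 6 to 2 for mesenchymal and 1 to 0 for melanocyte markers, while all tested genes called went from 40.0% to 9.23%. In SS against SS+NAC, where all tested genes called went from 42.7% to 14.4%, they went from 1 to 0 for lineage partners, 8 to 4 for hormone activation and response, 8 to 2 for TSH and cAMP signalling, 5 to 4 for epithelial, 7 to 2 for mesenchymal, 1 to 0 for fibroblast, 0 to 1 for leukocyte (CD68, -0.33) and 1 to 0 for melanocyte markers. In SS+NAC against control, with 2.01% of all tested genes called in both fits, they went from 0 to 1 for hormone activation and response and 1 to 2 for mesenchymal markers. Low depth limits FOXE1, SLC5A5, DIO2 and TG, with under 70 counts in a library, and NKX2-1 and DUOX1, with at most 5.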
